A study of Homo sapiens with 9 samples.

Results

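PPFIA4, ITPR1, PPP1R14C, STK39, SERPINE2, NPTX2, RASD1 and TUBB2B, 8 of 18153 genes in the gene-level table, were followed across 9 expression arrays of Huh-7 hepatoma cells. They were chosen for their difference between shHIF-1A and shGFP cells after 12 h of hypoxia, so that difference is described here and not tested. The tested arms were cells with a stable lentiviral short hairpin RNA (shRNA) against HIF-1A in hypoxia (1% oxygen) for 12 h, and cells with a stable shRNA against NDRG3 in hypoxia for 6, 12 or 24 h. The controls carried an shRNA against GFP and were kept in hypoxia for 6, 12 or 24 h or in normoxia. By the labels every line was derived from Huh-7 and stably expressed a hairpin, and whether a line was 1 clone or a pool is not given in the sources used here. A 6-array platform held the shHIF-1A array, the 6 h and 12 h shNDRG3 arrays and the shGFP arrays of normoxia, 6 h and 12 h; a 3-array platform held the shNDRG3 array and the shGFP hypoxia and normoxia arrays of 24 h. Each group had 1 array, so a difference between arrays has no replicate check, and in bulk RNA fewer cells expressing a gene and less RNA per cell cannot be told apart. No shHIF-1A array in normoxia was analysed here, and a difference already present in normoxia cannot be told apart from one that arises in hypoxia.

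HIF1A encodes the oxygen-regulated alpha subunit of hypoxia-inducible factor 1 (HIF-1). In normal oxygen the protein is hydroxylated and degraded; in low oxygen it pairs with the beta subunit ARNT and binds hypoxia response elements, whose core reads ACGTG or GCGTG, to switch on genes of glycolysis, pH control and vessel growth. Genes can also change after HIF1A loss without being bound by the factor, and the 8 genes come from unrelated families: a synaptic scaffold, a calcium channel, a phosphatase inhibitor, a kinase of ion transport, a protease inhibitor, a pentraxin, a small GTPase and a tubulin.

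The windows from 250 bases before to 50 after the annotated start were searched for ACGTG and GCGTG on both strands, because the genes were picked on loss of a factor that binds these letters. All 8 genes had a window in RefSeq's GRCh38.p14 table, SERPINE2 having 2. A match was held by 7 genes, and by 8 of the 9 windows. Among the table's windows for all genes, 35116 in number, 48.4% held one too, so a match is common. The palindrome CACGTG, which reads ACGTG on both strands and is also a general E-box, was in 2 of the 9 windows and in 7.26% of all windows. The windows of PPFIA4 (chr1:203026241-203026540, plus strand), ITPR1 (chr3:4493098-4493397, plus strand), the start of SERPINE2 that holds CACGTG (chr2:224031429-224031728, minus strand) and STK39 (chr2:168247546-168247845, minus strand) are shown as the hypoxia-induced gene of the set, the other gene that was lower, a gene that was higher with the same palindrome, and the gene with no match. They are written 5′ to 3′ on the gene's strand with every match in capitals.
PPFIA4: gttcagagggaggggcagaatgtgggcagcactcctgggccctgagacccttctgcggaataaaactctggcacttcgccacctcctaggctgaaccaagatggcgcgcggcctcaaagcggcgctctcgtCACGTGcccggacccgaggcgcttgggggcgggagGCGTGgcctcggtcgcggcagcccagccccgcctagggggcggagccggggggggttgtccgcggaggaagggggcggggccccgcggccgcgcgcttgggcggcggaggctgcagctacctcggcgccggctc
ITPR1: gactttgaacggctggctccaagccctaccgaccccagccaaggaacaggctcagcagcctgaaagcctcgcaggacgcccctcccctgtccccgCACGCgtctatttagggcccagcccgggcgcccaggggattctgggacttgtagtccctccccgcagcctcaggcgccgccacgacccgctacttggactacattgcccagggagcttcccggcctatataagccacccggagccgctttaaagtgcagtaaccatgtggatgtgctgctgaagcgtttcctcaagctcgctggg
SERPINE2: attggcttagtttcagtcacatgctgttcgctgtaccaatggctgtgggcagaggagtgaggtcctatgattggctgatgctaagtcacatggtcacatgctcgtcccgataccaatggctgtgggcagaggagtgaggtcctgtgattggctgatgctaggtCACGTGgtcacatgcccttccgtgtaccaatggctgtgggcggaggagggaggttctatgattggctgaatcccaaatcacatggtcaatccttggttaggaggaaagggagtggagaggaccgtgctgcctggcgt
STK39: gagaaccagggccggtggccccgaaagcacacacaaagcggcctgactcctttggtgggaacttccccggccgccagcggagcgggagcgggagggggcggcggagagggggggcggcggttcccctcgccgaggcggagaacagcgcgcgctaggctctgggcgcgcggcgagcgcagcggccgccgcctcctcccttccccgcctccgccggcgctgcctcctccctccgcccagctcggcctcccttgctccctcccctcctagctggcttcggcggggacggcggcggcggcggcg
In PPFIA4 the palindrome began 119 bases before the start and a GCGTG 84 bases before it. ITPR1 held 1 match, a CACGC that reads GCGTG on the other strand. In SERPINE2 the palindrome began 87 bases before the start. These are matches of letters in a window and not measured binding sites.

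The knockdown and the cells were checked first. HIF1A intensity was 231 in shHIF-1A cells at 12 h, against 897 in shGFP cells at 12 h, and between 805 and 1065 on the other 5 arrays of that platform. This gene-level value matched neither 1 probe nor a mean of 2 probes there, and means of more probes were not tried. The cultures showed little of a hepatocyte programme: an array had 1 to 4 of 20 hepatocyte markers at or over the filter value, ALB lay between 160 and 229 and AFP, a gene typical of hepatoma cells, did not exceed 187. These levels go against the hepatoma label, and whether the cultures were what the label says was not tested. A list of 20 markers for cell types other than hepatocytes had 6 to 8 over the filter per array; their summed intensity was 33958 on the shHIF-1A array, against 25575 on the shGFP 12 h array, of which the keratin gene KRT17 made up 29323 and 21439, and their part in the differences below was not tested.

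Among 11414 genes that passed the filter on low values, PPFIA4 and ITPR1 had the largest negative differences on the shHIF-1A array, and 5 of the members were among the 8 largest positive ones. Differences are on the scale of log2(intensity + 32), which understates changes of dim genes. Of the 8 genes 7 were at least 2-fold apart from shGFP cells, against 1.14% of all genes tested, a contrast that the choice of the genes fixes. STK39 was the exception, at 0.79 and place 149 from the top, with IRF8 (0.79) and CKMT1B (0.79) on either side. TUBB2B (1.55, place 8) had CA2 (1.55, place 9) just below it. ATP5MC1 (2.16), ITPK1 (1.76) and S100A9 (1.72) lay above other members and BMP6 (-1.99) next to ITPR1, so the 8 genes are a selection from the extremes and not all of them.

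**Figure D1:**
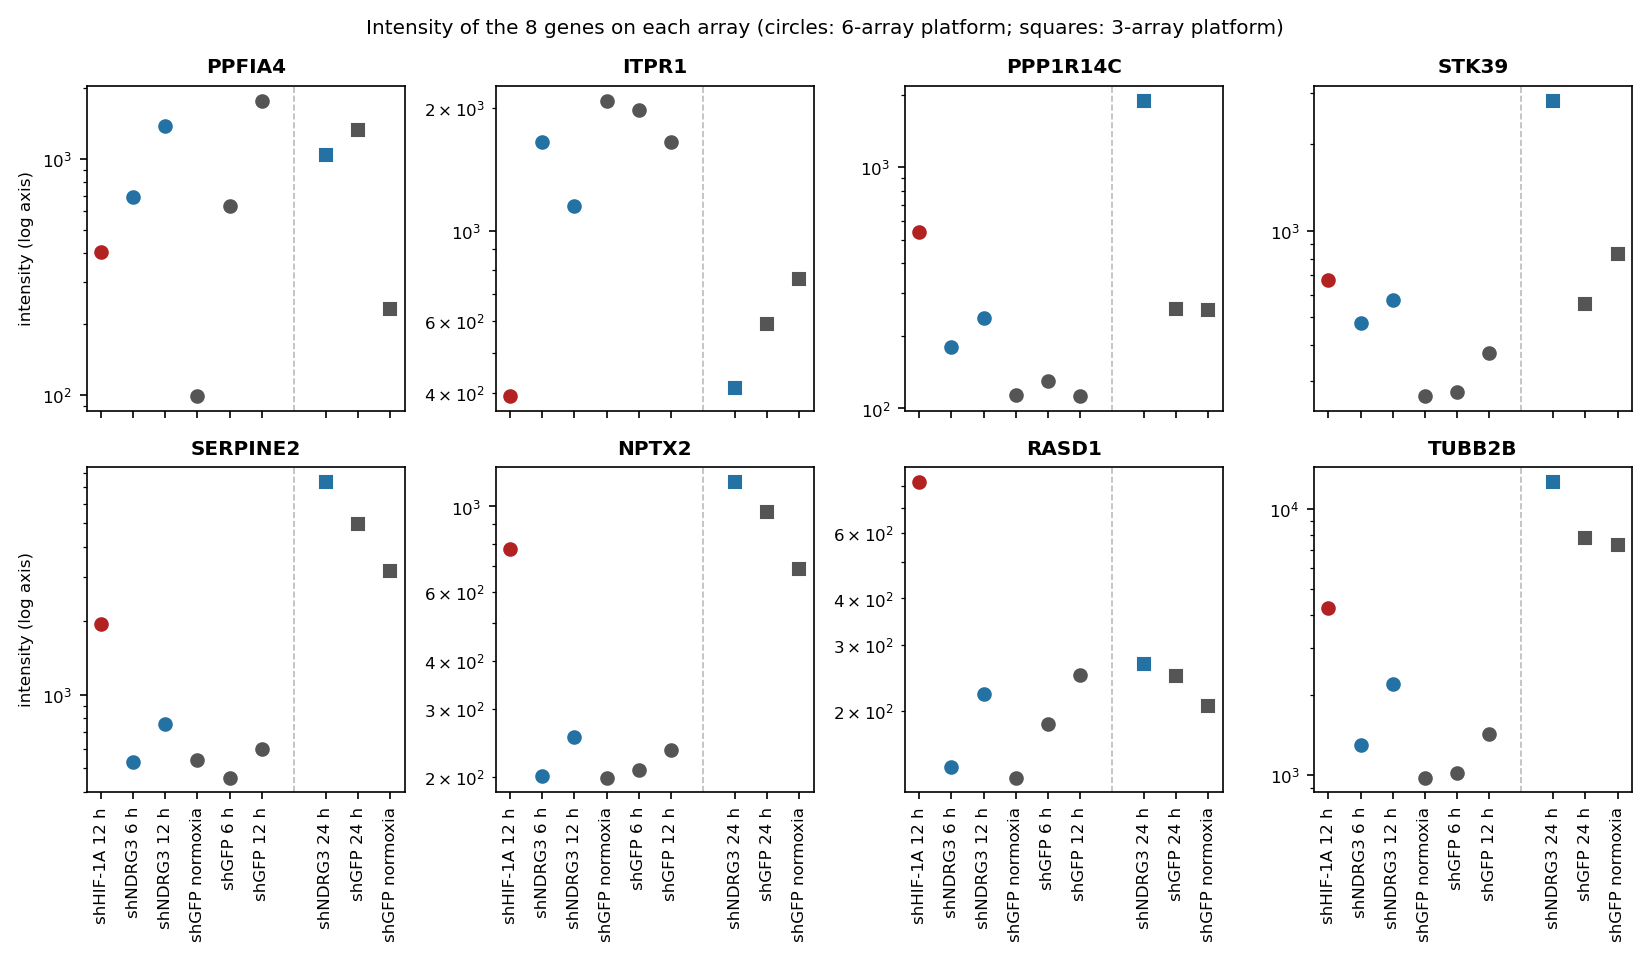
Intensity of each of the 8 genes (vertical, log axis) on the 9 arrays (horizontal), with shHIF-1A in red, shNDRG3 in blue and shGFP in grey, each point being 1 array; times are hours of hypoxia. Circles are the 6-array platform and squares the 3-array platform, which appear to have been normalized separately. On the circles, 6 genes are highest and ITPR1 is lowest in shHIF-1A cells, whereas PPFIA4 (402) lies above normoxia (98.5) and below the other hypoxia arrays.

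PPFIA4, which encodes liprin-alpha-4, a scaffold of presynaptic active zones and cell edges, was the one member that responded strongly to hypoxia. Its intensity was 402 in shHIF-1A cells at 12 h, 687 and 1375 in shNDRG3 cells at 6 h and 12 h, and 98.5, 631 and 1766 in shGFP cells in normoxia, at 6 h and at 12 h. At 24 h it was 1042 in shNDRG3 cells and 1332 in shGFP cells in hypoxia, against 231 in shGFP cells in normoxia. All hypoxia arrays were above their platform's normoxia array, and among the hypoxia arrays of the first platform the shHIF-1A array was the lowest. In shHIF-1A cells the difference was -2.05 from shGFP cells at 12 h, -1.70 from shNDRG3 cells at 12 h and 1.73 from shGFP cells in normoxia. PPFIA4 was under the filter value in normoxia (98.5 against 127), so the size of its hypoxia difference depends on the background.

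ITPR1, an inositol trisphosphate receptor that releases calcium from the endoplasmic reticulum, was lowest in shHIF-1A cells without having been induced by hypoxia in controls. Its intensity was 392 in shHIF-1A cells at 12 h, 1645 and 1150 in shNDRG3 cells at 6 h and 12 h, and 2081, 1981 and 1649 in shGFP cells in normoxia, at 6 h and at 12 h. At 24 h it was 410 in shNDRG3 cells and 590 in shGFP cells in hypoxia, against 763 in shGFP cells in normoxia. The shHIF-1A array lay 1.48 log2 units below the lowest of the other 5 arrays, which spanned 0.84. The difference from shGFP cells at 12 h was -1.99.

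PPP1R14C, an inhibitor of protein phosphatase 1 also called KEPI, was dim in controls and bright in shHIF-1A cells and in shNDRG3 cells at 24 h. Its intensity was 536 in shHIF-1A cells at 12 h, 180 and 238 in shNDRG3 cells at 6 h and 12 h, and 114, 130 and 112 in shGFP cells in normoxia, at 6 h and at 12 h. At 24 h it was 1884 in shNDRG3 cells and 259 in shGFP cells in hypoxia, against 256 in shGFP cells in normoxia. On both platforms every knockdown array was above every control array. Its shHIF-1A difference at 12 h was 1.98. It passed the filter on 7 of 9 arrays, the shGFP arrays of normoxia and 12 h being under it.

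STK39, the kinase SPAK that phosphorylates sodium and potassium chloride cotransporters, showed the same order with a smaller difference in shHIF-1A cells. Its intensity was 673 in shHIF-1A cells at 12 h, 479 and 577 in shNDRG3 cells at 6 h and 12 h, and 266, 277 and 376 in shGFP cells in normoxia, at 6 h and at 12 h. At 24 h it was 2815 in shNDRG3 cells and 555 in shGFP cells in hypoxia, against 827 in shGFP cells in normoxia. All knockdown arrays were again above all control arrays of their platform. The difference of shHIF-1A from shNDRG3 cells at 12 h was 0.21.

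RASD1, a dexamethasone-inducible Ras-like GTPase, was high in shHIF-1A cells alone. Its intensity was 821 in shHIF-1A cells at 12 h, 141 and 222 in shNDRG3 cells at 6 h and 12 h, and 132, 184 and 250 in shGFP cells in normoxia, at 6 h and at 12 h. At 24 h it was 267 in shNDRG3 cells and 248 in shGFP cells in hypoxia, against 206 in shGFP cells in normoxia. The shHIF-1A array lay 1.60 above the highest of the other 5, the shGFP array of the same time, and these spanned 0.78, and shNDRG3 cells were below shGFP cells at 6 h and 12 h.

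SERPINE2 and NPTX2 encode secreted proteins. SERPINE2, or protease nexin-1, inhibits thrombin and plasminogen activators; its intensity was 1933 in shHIF-1A cells at 12 h, 531 and 755 in shNDRG3 cells at 6 h and 12 h, and 541, 458 and 599 in shGFP cells in normoxia, at 6 h and at 12 h. At 24 h SERPINE2 was 7351 in shNDRG3 cells and 4975 in shGFP cells in hypoxia, against 3201 in shGFP cells in normoxia. The shHIF-1A array of SERPINE2 lay 1.64 above shGFP cells at 12 h and 1.32 above the highest of the other 5 arrays. NPTX2, a neuronal pentraxin known for clustering glutamate receptors at synapses, had an intensity of 778 in shHIF-1A cells at 12 h, 201 and 254 in shNDRG3 cells at 6 h and 12 h, and 199, 208 and 234 in shGFP cells in normoxia, at 6 h and at 12 h. At 24 h NPTX2 was 1157 in shNDRG3 cells and 967 in shGFP cells in hypoxia, against 689 in shGFP cells in normoxia. Its other 5 arrays on the first platform spanned 0.30, with the shHIF-1A array 1.50 above them and 1.60 above shGFP cells at 12 h.

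TUBB2B, a beta-tubulin of developing neurons, was higher on knockdown arrays of both kinds. Its intensity was 4250 in shHIF-1A cells at 12 h, 1306 and 2196 in shNDRG3 cells at 6 h and 12 h, and 981, 1019 and 1428 in shGFP cells in normoxia, at 6 h and at 12 h. At 24 h it was 12649 in shNDRG3 cells and 7795 in shGFP cells in hypoxia, against 7324 in shGFP cells in normoxia. Each shNDRG3 array was above the shGFP array of its time, and the shHIF-1A array was 0.94 above all others of its platform. TUBB2B has the near-identical paralogue TUBB2A, so its probe may not separate them fully, although TUBB2A itself was at 628 in shHIF-1A cells, against 432 in shGFP cells at 12 h, a difference of 0.51.

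On the 6-array platform 7 of the 8 genes lay outside the range of the other 5 arrays on the shHIF-1A array, against 44.2% of all 11414 genes, and PPFIA4 lay within it. The choice of the genes used that array, so the count is descriptive. Set against shNDRG3 cells at 12 h, 6 of the 8 were at least 2-fold apart (0.974% of genes tested), with TUBB2B at 0.94 and STK39 at 0.21. Set against shGFP cells in normoxia all 8 were (4.88%), ITPR1 below at -2.32 and the other 7 above, from 1.24 for STK39 to 2.38 for RASD1. Both comparisons share the shHIF-1A array with the choice of the genes.

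Hypoxia in control cells was then examined on arrays the choice did not use. PPFIA4 was the one member at least 2-fold apart at 6 h (2.35) and at 24 h (2.38); at 6 h 0.952% of all genes tested were that far apart and at 24 h 4.64%. At 12 h, an array shared with the choice, it was at 3.79, and of the 7 members over the filter it was the only one at least 2-fold apart, against 4.02% of genes. In limma over 6 arrays (normoxia, 6 h and 24 h shGFP and 6 h and 24 h shNDRG3, with a platform block, 1 hypoxia term and 1 NDRG3 term), PPFIA4 rose by 2.36 (SE 0.19, limma Benjamini-Hochberg adjusted p = 0.0125). Because shNDRG3 arrays have their own term, this estimate is the mean of the 6 h and 24 h shGFP differences above. It adds no further support to them. PPFIA4 was 1 of 11 genes that rose, 0.103% of 10646 tested, and 0 fell, with 1044 (9.81%) at an unadjusted p under 0.05. The call ended with no filter (adjusted p = 0.0808), with the 12 h shNDRG3 array added (0.134), and without the shGFP arrays of 6 h (0.185), of 24 h (0.383) or of the 6 h and 12 h normoxia series (0.0525), while the difference was positive in each alternative run, with 3.02 as the highest. Times stood in for replicates. With the platform block, the residual spread is the change of the hypoxia and NDRG3 differences between the 6 h and 24 h series, which lie on separate platforms. The fit also draws on the spread of all genes tested (prior degrees of freedom 4.517, residual 2). This limma p does not measure the spread between cultures.

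The other 7 genes did not pass for hypoxia. RASD1 had 0.32 (95% confidence interval -0.10 to 0.74), NPTX2 0.26 (-0.24 to 0.76), ITPR1 -0.21 (-0.65 to 0.23) and TUBB2B 0.07 (-0.35 to 0.49), with limma adjusted p between 0.571 and 0.966 over the 7. The interval of PPP1R14C was wide (-1.20 to 1.37), and its shNDRG3 array at 24 h stood far from the others. A p that misses the threshold does not show that these genes stayed level.

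**Figure D2:**
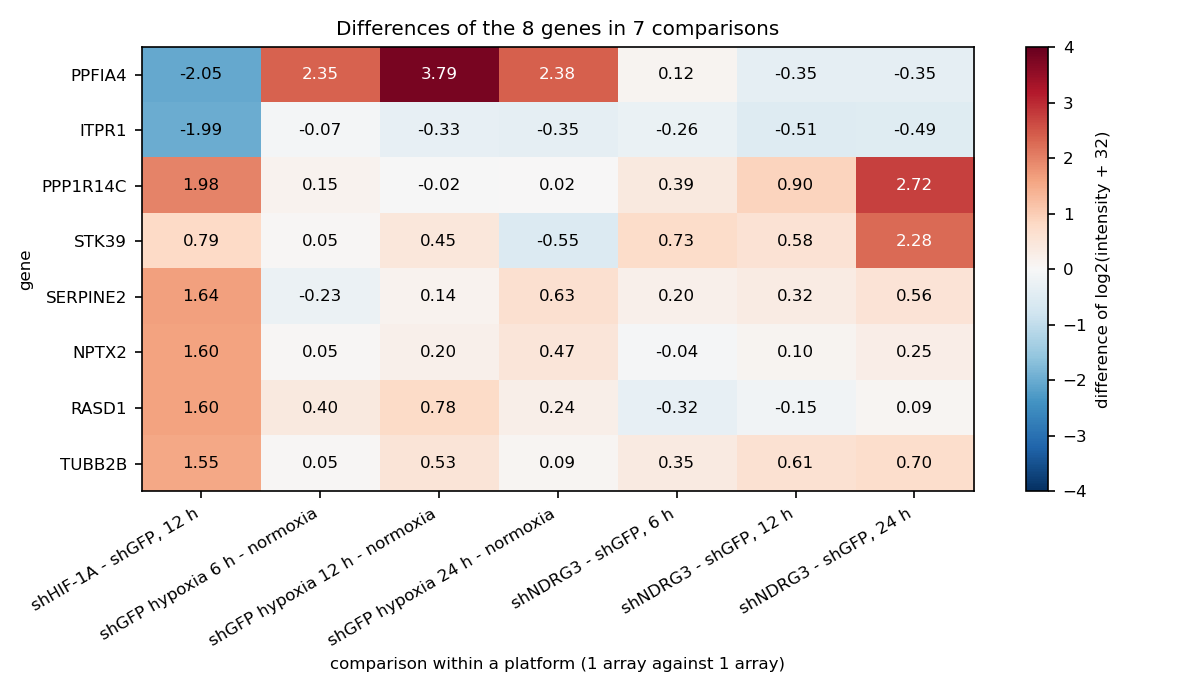
Differences of log2(intensity + 32) for the 8 genes (rows) in 7 comparisons of 1 array against 1 array within a platform (columns), from blue (lower) to red (higher). PPFIA4 alone has large values in the hypoxia columns (2.35, 3.79 and 2.38), and PPP1R14C and STK39 have the largest in the 24 h shNDRG3 column (2.72 and 2.28).

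Cells depleted of NDRG3, a hydroxylation-regulated protein of the NDRG family, gave a second view of the same genes. PPP1R14C was higher by 0.39, 0.90 and 2.72 and STK39 by 0.73, 0.58 and 2.28 at 6, 12 and 24 h. TUBB2B (0.35, 0.61 and 0.70) and SERPINE2 (0.20, 0.32 and 0.56) were above control at each time, and ITPR1 (-0.26, -0.51 and -0.49) was below. The 12 h difference shares its shGFP array with the choice of the genes. STK39, 149th in the shHIF-1A contrast, was among the larger differences at 24 h, and whether that value entered its choice is not known. PPFIA4 (0.12, -0.35 and -0.35), NPTX2 (-0.04, 0.10 and 0.25) and RASD1 (-0.32, -0.15 and 0.09) had differences of both signs. None of the 8 was at least 2-fold apart at 6 h (0.115% of genes tested) or at 12 h (0.168%), and 2 were at 24 h (3.25%).

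The NDRG3 term of the same limma model called 0 of 10646 genes, with 363 (3.41%) at an unadjusted p under 0.05, PPP1R14C, STK39 and TUBB2B among them. NDRG3 itself was at -2.42 with a limma adjusted p of 0.098, so the fit did not call the targeted gene either. PPP1R14C was at 1.56 (SE 0.54; limma, adjusted p = 0.983), STK39 at 1.50 (SE 0.34), TUBB2B at 0.52 (SE 0.18) and ITPR1 at -0.38 (SE 0.18), all with the same adjusted p. The values rested on the 24 h array: without the 24 h shNDRG3 array PPP1R14C was at 0.43 and STK39 at 0.88 (limma adjusted p above 0.99 for both), and without the 6 h shNDRG3 array they were at 2.69 and 2.13 (limma adjusted p = 1.98e-05 and 0.000348). Each of these fits leaves 1 shNDRG3 array, which is assumed to vary like the other arrays, and 1 residual degree of freedom. That 24 h array also had less HIF1A signal, 331 with shNDRG3 and 572 with shGFP. This value is the mean of 2 probes, 1 at 506 and 951 and the other, under the filter value, at 156 and 194. At 6 h and 12 h HIF1A in shNDRG3 cells differed from control by -0.03 and 0.24. The part of HIF1A in the values of PPP1R14C and STK39 was not tested. The summed markers of other cell types also stood apart on that 24 h array, at 7110 with shNDRG3 and 19850 with shGFP, with KRT17 at 797 and 13354. Of the 8 markers over the filter, 2 were at least 2-fold lower (KRT17, and CD68 at -1.28) and 0 higher, against 3.25% of all genes apart in either direction. SYP (0.72), ACTA2 (0.38) and COL1A1 (0.04) were above control, and the median was -0.16. The part of these markers was not tested either.

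**Figure D3:**
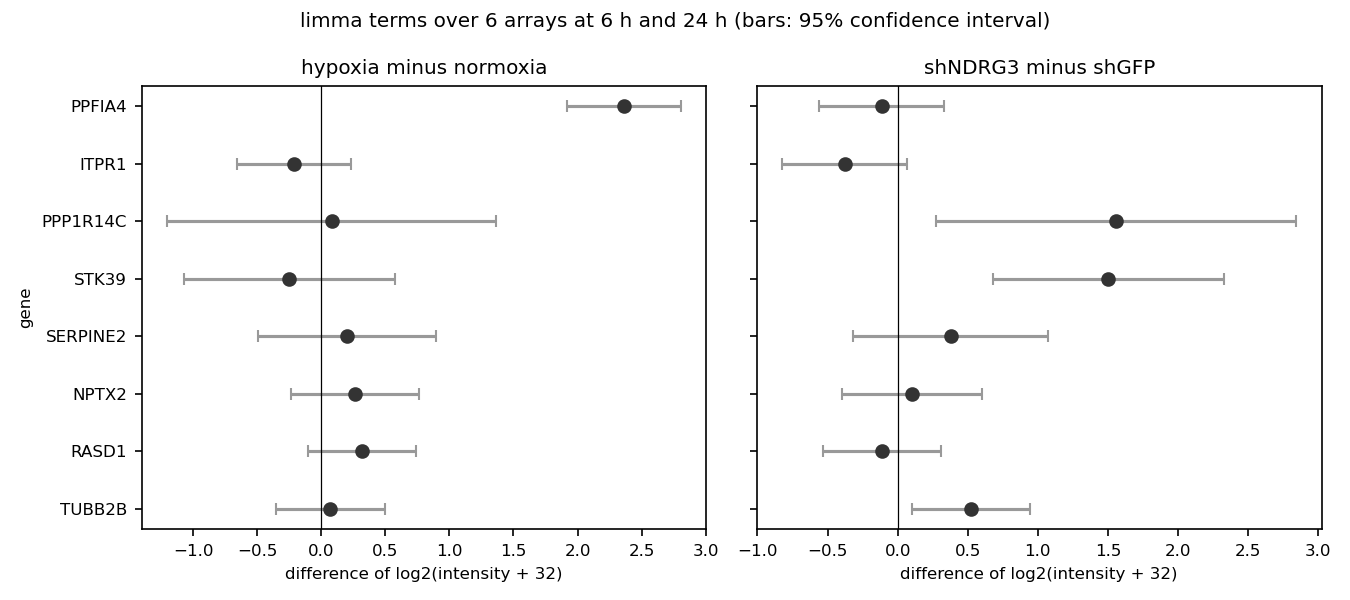
Estimates of the hypoxia term (left) and the NDRG3 knockdown term (right) for the 8 genes from limma over 6 arrays, on the scale of log2(intensity + 32), with 95% confidence intervals as bars. On the left the interval of PPFIA4 (1.92 to 2.81) is far from 0; on the right those of PPP1R14C, STK39 and TUBB2B lie above 0, though no gene passed after adjustment over 10646 genes.

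The families of the 8 genes were set beside them on the shHIF-1A array at 12 h. At least 2-fold differences are rare on that array (1.14% of all genes), and in 6 families no relative of the member had one in the direction of the member: liprins, genes of calcium release and stores, inhibitors of protein phosphatase 1, the kinase family of STK39 with its cotransporters, relatives and partners of RASD1, and tubulins. Of the liprins, PPFIA1 (782 in shHIF-1A cells, against 807 in shGFP cells at 12 h) differed by -0.04 and PPFIA3 by 0.24, and PPFIA2 was under the filter. The other inositol trisphosphate receptor genes ITPR2 and ITPR3 differed by 0.03 and 0.10, and the median over 14 relatives of ITPR1 in calcium handling was 0.06, against 0.01 over all genes. The 9 phosphatase 1 inhibitor genes other than PPP1R14C had a median of -0.01, with PPP1R14A, PPP1R14B and PPP1R14D at 0.52, -0.31 and 0.10. PPP1R14A had an intensity of 1481 with shNDRG3 and 781 with shGFP after 24 h, a difference of 0.90 beside the 2.72 of PPP1R14C.

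Among relatives that did differ were NPTX1 and SLC12A3. NPTX1, the sister pentraxin of NPTX2, was at 1107 in shHIF-1A cells, against 406 in shGFP cells at 12 h (1.38), and between 406 and 475 on the other 5 arrays, so both neuronal pentraxins were high on the same array. SLC12A3, the thiazide-sensitive cotransporter that STK39 phosphorylates in kidney, was lowest on the array of each platform where STK39 was highest: it had 1091 with shHIF-1A and 2833 with shGFP after 12 h (-1.35), and 154, under the filter value of 210.2, with shNDRG3 and 425 with shGFP after 24 h (-1.30). Other arrays did not keep this opposite order. With shNDRG3 at 12 h STK39 was at 577 and SLC12A3 at 2141, against 266 and 1412 with shGFP in normoxia. In shGFP cells after 12 h of hypoxia both were above normoxia (0.45 for STK39 and 0.99 for SLC12A3). OXSR1, the closest relative of STK39, differed by -0.08, and the 10 genes of that list other than STK39 had a median of -0.10. Among tubulins, TUBB3 differed by 0.53 and TUBA4A by -0.94, and the median over 13 tubulins other than TUBB2B was 0.09. RASD2, at 130 with shHIF-1A and 125 with shGFP (0.05), was near the filter value, and the 6 genes listed with RASD1 had a median of 0.01.

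**Figure D4:**
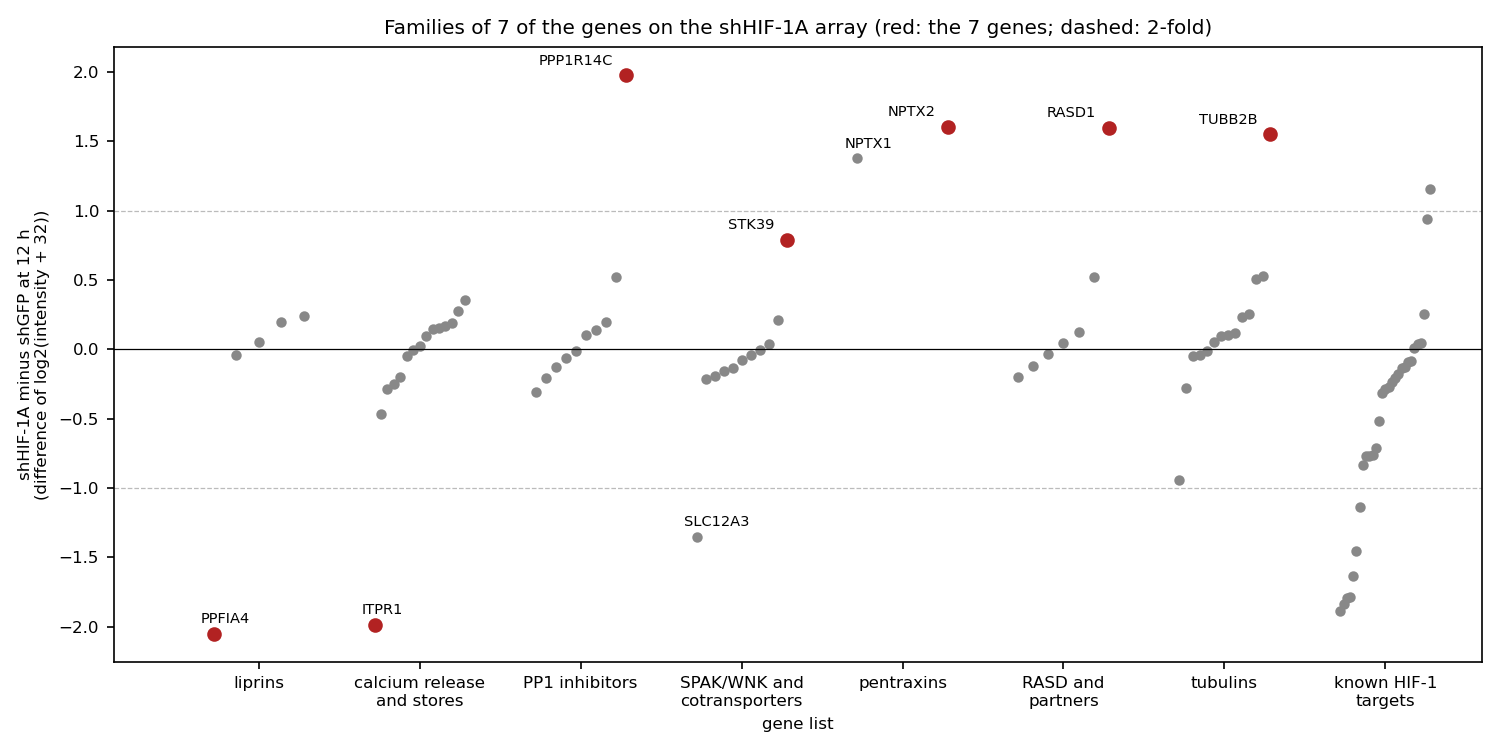
Difference of shHIF-1A from shGFP cells at 12 h (vertical, log2(intensity + 32)) for the genes over the filter in 8 gene lists (horizontal), with 7 of the genes in red (the list of SERPINE2 is not drawn) and dashed lines at 2-fold. NPTX1 (1.38) lies near NPTX2, SLC12A3 (-1.35) lies opposite STK39 (0.79), and 7 of 29 known HIF-1 targets lie below the lower line.

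Known HIF-1 targets gave the setting for PPFIA4. Of 29 measured, 7 were at least 2-fold lower and 1 higher (CA12, 1.16) on the shHIF-1A array, against 1.14% of all genes in either direction. Their median was -0.29, against 0.01 over all genes. For hypoxia limma called 8 of the 27 tested as higher, against 0.103% of all genes tested, and 0 fell. Among the 8 were ALDOC (2.91, limma adjusted p = 0.0056) and BNIP3 (2.33, limma adjusted p = 0.0122). Of the relatives in the 8 family lists, members left out, 0 passed for either term in that model. Among all 10646 genes 0.103% passed for hypoxia and 0 for NDRG3, so this count does not set the relatives apart.

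The genes whose pattern was most like each member were found by Pearson correlation over the 9 arrays, after taking off each gene's mean within its platform. On each platform the filter value was reached by 10948 genes, and candidates were those of them without a provisional name. All points share the same arrays and normalization, and one array can set the value. PPFIA4 was most like the hypoxia-induced glycolytic gene ALDOC (r = 0.989) and the collagen prolyl hydroxylase gene P4HA2 (0.987). ALDOC was at 2941 in shHIF-1A cells, against 10200 in shGFP cells at 12 h, and at 658 in shGFP cells in normoxia. ITPR1 was most like the galanin gene GAL (0.982; 2807 in shHIF-1A cells, against 6246 in shGFP cells at 12 h).

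STK39 was most like GNG4 (0.987) and the creatine kinase gene CKB (0.978), and PPP1R14C most like KITLG, the ligand of KIT (0.985), and F2RL1, a protease-activated receptor gene (0.982). After 24 h CKB was at 12021 with shNDRG3 and 2909 with shGFP. SERPINE2 was most like the junction gene JAM3 (0.991) and the amino acid transporter gene SLC16A10 (0.988), NPTX2 most like BEX4 (0.992) and FSD1 (0.984). RASD1 was most like CMTM3 (0.978) and NT5E, an ectonucleotidase gene (0.972), and TUBB2B most like SALL2 (0.985) and CAMKV (0.978). The members were chosen on 2 of these 9 arrays, ITPR1 as low and SERPINE2, NPTX2, RASD1 and TUBB2B as high with shHIF-1A. Shared or opposite signs among them follow largely from that choice, so the values below are only a description. Among the members STK39 and PPP1R14C went together (0.935), as did SERPINE2 and NPTX2 (0.971) and NPTX2 and RASD1 (0.958), whereas ITPR1 ran opposite to TUBB2B (-0.976), NPTX2 (-0.975) and SERPINE2 (-0.973).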

How the data were processed

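Per the labels' protocols, an Illumina kit amplified 200 ng of total RNA for each array. How the arrays were scanned and normalized is not given in the sources used here. The authors deposited intensity on a linear scale, in 1 gene-level table and 2 tables of probes. Sorted probe values differed by at most 0.0323 (log2) between arrays of the 6-array platform and 0.006 on the other, so the deposited intensity appears quantile normalized within each platform; background was not subtracted (lowest values 58 and 104.7). For all 8 genes the gene-level value equalled 1 probe, the same probe on both platforms (tolerance 0.0002 of the highest value, at least 0.02). Every value column matched a sample title.

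Gene names were updated through RefSeq synonyms (2282 renamed, 813 kept as filed). Values were analysed as log2(intensity + 32), with differences within a platform. A gene entered a comparison if at least 1 of the compared arrays reached the 40th percentile of the platform (127.3 or 210.2), and the limma fit if this held on both platforms. Tests used limma 3.58.1 under R 4.3.3, with calls at a Benjamini-Hochberg adjusted p under 0.05, and left 2 residual degrees of freedom (prior 4.517). On simulated data over 10646 genes the hypoxia term recovered 97 of 100 genes changed by a log2 of 2 and 24 of 100 changed by 1, with 5 unchanged genes called. The NDRG3 term recovered 100 and 31, with 5 unchanged called. Each simulated gene had independent normal errors of equal spread on every array, drawn from the fitted prior. Real arrays need not follow this, and NDRG3 itself, at -2.42, was not called (limma adjusted p = 0.098). These counts therefore do not give the power of the real fit. The number of arrays limits the precision.

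The members, lists and tests were chosen with earlier results of these data known. The rule for named genes took the 8 members, the knockdown targets, neighbours in rank, close paralogues, list members at least 2-fold apart on the shHIF-1A array and the 2 most alike genes per member without provisional names; TUBB3, TUBA4A, ALDOC and BNIP3 among the list genes were picked later, with their values in view. Genes that the rule names but the text does not give are not reported here. Alternatives covered pseudocount, filter, centring, background and arrays. The single probe of each member was also run, but it repeats the gene-level value.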

Additional observations from a re-analysis of the deposited data

Results flagged for a closer look

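STK39 differed in opposite directions between times in control cells: hypoxia minus normoxia was 0.45 at 12 h and -0.55 at 24 h. The intensity was 376 in hypoxia at 12 h, against 266 in normoxia, and 555 in hypoxia at 24 h, against 827 in normoxia. The times lie on separate platforms, the values rest on 1 array each, and the difference between the times was not tested.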

How the results depend on the processing

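Of 130 recomputed values of members at least 2-fold apart in a comparison, 129 kept direction and stayed at least 2-fold apart under pseudocounts of 0 and 100, median centring, background subtraction and the single probe; the exception was PPP1R14C in shHIF-1A against shNDRG3 cells at 12 h, at 0.91 with a pseudocount of 100 (1.07 otherwise). The count of members at least 2-fold apart was 2 in place of 1 for control hypoxia at 12 h after background subtraction (RASD1, 1.07), and 1 in place of 0 for NDRG3 knockdown at 12 h with a pseudocount of 0 or after background subtraction (PPP1R14C, 1.08 and 1.29). For hypoxia limma called 11 genes, PPFIA4 among them; it called 3 with no filter, 25 with the 60th percentile filter, 1 with the 12 h shNDRG3 array added and 602 over all 9 arrays, with 0 members called with no filter or with the 12 h array added. Leaving out each array in turn gave 0 to 251 genes and 0 to 1 members; the 2 counts of 0, without the shGFP array of 6 h or of 24 h, had 806 and 167 genes at an unadjusted p under 0.05. For NDRG3 knockdown limma called 0 genes, and 1 with the 60th percentile filter, with the 12 h array added and over all 9 arrays. Leaving out each array in turn gave 0 to 280 genes and 0 to 2 members, the highest without the 6 h shNDRG3 array. These fits had 1 residual degree of freedom, and the cause of the changes was not tested. No paired analysis was possible because the labels give no replicate numbers; the platform block of the limma fit already ties the arrays of the 6 h series and those of the 24 h series. Dim genes (PPFIA4 in normoxia, PPP1R14C in controls) are limited by signal over background.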

Other observations

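The control arrays of the platforms sat at unlike levels for the members, although the same probe measured each gene on both. In shGFP cells in normoxia SERPINE2 was at 3201 in the 24 h series and 541 in the 6 h and 12 h series, TUBB2B at 7324 and 981, NPTX2 at 689 and 199, and ITPR1 at 763 and 2081. The platforms appear to have been normalized separately, so no difference was taken.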
